A study of Mus musculus with 4 samples.

Results

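The 10 genes described here encode a tight junction protein and the transporters, receptor and enzyme that brain endothelial cells place at the blood-brain barrier. They were taken as a list of symbols (Cldn5, Slco1a4, Slc2a1, Mfsd2a, Slc7a5, Slc40a1, Abcb1a, Slc38a5, Tfrc and Car4), and all 10 were found among the 35963 genes of the deposited count tables. The cells came from the hypothalamus of C57BL/6 mice carrying Lepr-cre and a Rosa-LSL-tdTomato reporter, and were sorted for the reporter. The Cre is driven by the leptin receptor locus, so every group consists of cells that expressed Cre at some time, and a cell type is represented here only as far as its cells recombined. A 24 h fast preceded sorting for 1 plate of 384 wells, and the other 3 plates came from fed mice and are called fed plates 1, 2 and 3. No label gives age or sex, or the number of animals behind a plate.

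At the blood-brain barrier, endothelial cells seal the gaps between them with tight junctions, suppress vesicle traffic, and move nutrients, ions and drugs through dedicated carriers. Glucose, large amino acids and lysophospholipids enter through carriers, iron is taken up by receptor-mediated endocytosis, and efflux pumps return lipophilic compounds to the blood. Wnt signalling from the surrounding brain maintains much of this programme, and in the mediobasal hypothalamus some vessels near the median eminence are fenestrated instead.

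Of 1536 wells, 1279 were kept: 270 on the fasted plate and 356, 322 and 331 on fed plates 1, 2 and 3. Wells below 1000 transcripts or above 30% mitochondrial transcripts were left out, and kept wells of a plate summed to 4402407 to 5535041 transcripts. Clustering gave 25 clusters, and 3 of these held the endothelial markers and were called endothelial-like (152 cells). They were cluster 7 (69 cells, found on every plate), cluster 8 (57 cells, all on fed plate 1) and cluster 18 (26 cells, 18 of them on fed plate 1). The summed level of the 12 endothelial markers was 10540 to 15930 CPM (counts-per-million of the transcripts in those cells) in endothelial-like cells of the 4 plates, and 57.03 to 225.2 CPM in neurons. The members and all other listed genes were left out of the clustering features and of the naming markers, but the class was still set from other genes of the same cells. Cluster 15 (29 cells) met 12 of 12 endothelial and 11 of 11 mural markers, was led by haemoglobin genes, and stayed unnamed. Cluster 20, a microglia- or macrophage-like cluster, also held endothelial transcripts, and its 10 cells on fed plate 1, all those of the class there, had 1495 CPM of Cldn5. Both were kept in every comparison, and some results are also given without cluster 15 or without fed plate 1. Folds without these clusters are not given for endothelial-like cells or for neurons, so their part in those folds is not shown.

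Some sequence of the members bears on their known regulation and is shown first. The iron importer Tfrc and the iron exporter Slc40a1 are textbook targets of the iron regulatory proteins, which bind hairpins called iron-responsive elements in untranslated regions. A search of GENCODE vM21 transcripts (GRCm38) for a C, 5 bases, the loop CAGTGN and 5 bases that pair with the first 5 (G-U pairs allowed) found 1 such site in the 5′ untranslated region of Slc40a1 (chromosome 1, minus strand) and 4 in the 3′ untranslated region of Tfrc (chromosome 16, plus strand). Among 21877 protein-coding genes, 0.142% held a match in a 5′ and 0.59% in a 3′ untranslated region, and no other member held one. The sites are printed because these are the members whose mRNA stability or translation depends on cellular iron, with the loop in capitals.
Slc40a1 site 1: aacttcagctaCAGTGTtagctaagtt
Tfrc site 1: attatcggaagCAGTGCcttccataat
Tfrc site 2: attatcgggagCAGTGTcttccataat
Tfrc site 3: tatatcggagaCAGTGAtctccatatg
Tfrc site 4: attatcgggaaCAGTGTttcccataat
The 4 Tfrc loops differ only in their last base, which is C, T, A and T in the order shown.

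The 250 bases before the RefSeq start (GRCm38.p6) were available for 8 members. The TCF/LEF core CTTTGA, the DNA motif read by the nuclear arm of Wnt signalling, was searched on both strands and occurred in 2 of the 8, Mfsd2a and Abcb1a, against 14.0% of 27025 promoters of the same length. For Mfsd2a (chr4:122961189-122961438, minus strand) the match began 115 bases before the start. For Abcb1a (chr5:8566841-8567090, plus strand) the matches began 153 and 58 bases before a RefSeq start that lies 92986 bases upstream of the GENCODE start. Of the other 5 motifs searched on both strands, the ETS core CCGGAA was in 1 of the 8 (12.2% of all promoters), the Sp1 box GGGCGG in 3 (32.9%), a spaced NF-kB motif in 4 (45.4%), the Myc E-box CACGTG in 1 (6.05%) and TATAAA in none (13.0%). Mfsd2a and Abcb1a are printed because TCF/LEF factors act in the Wnt list described later, and capitals mark the core in either orientation.
Mfsd2a: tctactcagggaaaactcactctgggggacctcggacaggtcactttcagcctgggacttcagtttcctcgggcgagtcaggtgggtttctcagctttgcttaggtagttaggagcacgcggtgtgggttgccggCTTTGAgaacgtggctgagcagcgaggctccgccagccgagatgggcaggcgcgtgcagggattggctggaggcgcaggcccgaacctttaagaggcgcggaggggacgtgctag
Abcb1a: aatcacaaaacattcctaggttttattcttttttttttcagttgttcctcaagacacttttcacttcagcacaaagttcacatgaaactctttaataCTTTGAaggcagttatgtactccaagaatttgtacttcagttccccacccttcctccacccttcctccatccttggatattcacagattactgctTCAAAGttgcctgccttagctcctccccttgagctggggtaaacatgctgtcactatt

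The first comparison asked which cells of the sort carried the members. All 10 members were higher in endothelial-like cells than in the remaining kept cells by edgeR's quasi-likelihood test on counts summed per plate, with plate as a block (Benjamini-Hochberg adjusted p below 0.05). Against this, 2520 of 14388 genes tested were called higher (17.5%) and 4273 lower (29.7%). The median log2 fold of the members was 5.31, beside -0.27 over all genes tested. CEL-seq2 counts 1 molecular identifier per transcript at its 3′ end, so a CPM level does not scale with transcript length. In this sort and with a class built from expression, fewer cells of a type and less RNA per cell cannot be told apart in a plate total, so all levels below are CPM of the class.

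Cldn5, the claudin that seals brain endothelial tight junctions, is annotated as ENSMUSG00000041378, chromosome 16, 18776847 to 18778262, plus strand (mm10), and like the other 9 members is protein-coding. Its level in endothelial-like cells was 1661 CPM on the fasted plate and 2057, 2257 and 3113 CPM on fed plates 1, 2 and 3. In the remaining cells it was 9.65 to 188.7 CPM, so the plates of the class all lay above those of the rest. The remaining cells of fed plate 1 included 539 Cldn5 counts in cluster 15 and 161 in cluster 20. The log2 fold was 6.19 (SE 1.06, adjusted p 0.018). At least 1 Cldn5 transcript was seen in 151 of 152 endothelial-like cells (99.3%) and in 88 of 388 neurons (22.7%), at median depths of 10888 and 28403 transcripts. After thinning each cell to 1000 transcripts the shares were 88.2% (exact binomial 95% interval 81.9 to 92.8) of endothelial-like cells and 0.515% (0.0625 to 1.85) of neurons. In neurons, which should lack Cldn5, its level was 23.72 CPM on fed plate 1 and 1.94 to 6.90 CPM on the other plates.

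Of the 4 nutrient carriers, Slc2a1 (GLUT1; ENSMUSG00000028645, chromosome 4, 119108711 to 119137983, plus strand) transports glucose. Its level in endothelial-like cells was 2636 CPM on the fasted plate and 1898, 2036 and 1660 CPM on fed plates 1, 2 and 3. The remaining cells held 76.07 to 231.3 CPM of it, and the log2 fold was 4.27 (SE 0.25, adjusted p 3.65e-19). Slc7a5 (LAT1; ENSMUSG00000040010, chromosome 8, 121881150 to 121907694, minus strand) exchanges large neutral amino acids. It had 485.0 CPM on the fasted plate and 231.2, 943.0 and 448.5 CPM on fed plates 1, 2 and 3, a log2 fold of 4.71 (SE 0.38, adjusted p 9.73e-07). Its lowest plate was fed plate 1, where clusters 7, 8 and 18 held 599.7, 236.9 and 96.7 CPM. Slc38a5 (SNAT5; ENSMUSG00000031170, chromosome X, 8271133 to 8280179, plus strand) transports glutamine and histidine. It had its highest level on fed plate 1, with 116.7 CPM on the fasted plate and 1371, 401.3 and 411.1 CPM on fed plates 1, 2 and 3. Its log2 fold was 5.78 (SE 0.45, adjusted p 2.68e-06). Mfsd2a (ENSMUSG00000028655, chromosome 4, 122946850 to 122961188, minus strand) carries lysophosphatidylcholine with omega-3 fatty acids and restrains transcytosis. It was the member with the lowest mean level, with 94.3 CPM on the fasted plate and 39.04, 371.2 and 90.77 CPM on fed plates 1, 2 and 3. Its log2 fold of 2.86 (SE 0.31, adjusted p 4.03e-14) was also the smallest of the 10. Only 28.7% of all Mfsd2a transcripts in kept cells were in the endothelial-like cells, and 30.3% of those cells held 1.

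Slco1a4 (OATP1A4; ENSMUSG00000030237, chromosome 6, 141805440 to 141856199, minus strand) carries organic anions and drugs. It had 2326 CPM on the fasted plate and 1345, 2488 and 1938 CPM on fed plates 1, 2 and 3. Its log2 fold of 6.64 (SE 1.09, adjusted p 0.0159) was the largest of the members. Abcb1a (ENSMUSG00000040584, chromosome 5, 8660077 to 8748575, plus strand) is 1 of the mouse genes for the efflux pump P-glycoprotein. It had 1949 CPM on the fasted plate and 1150, 1515 and 1538 CPM on fed plates 1, 2 and 3, a log2 fold of 6.08 (SE 0.91, adjusted p 0.0123). Both belong to families of similar genes, and how the counting treated reads shared between copies is not given in the sources used here. The paralogue Abcb1b (edgeR's quasi-likelihood test) had a log2 fold of -0.09 (SE 0.69, adjusted p 0.927).

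Tfrc (ENSMUSG00000022797, chromosome 16, 32608920 to 32632794, plus strand) is the transferrin receptor. It had 660.1 CPM on the fasted plate and 138.6, 722.3 and 603.3 CPM on fed plates 1, 2 and 3, and the remaining cells held 46.53 to 62.22 CPM. Its log2 fold was 3.10 (SE 0.52, adjusted p 0.00576), and 34.0% of its transcripts were in endothelial-like cells. Slc40a1 (ferroportin; ENSMUSG00000025993, chromosome 1, 45908068 to 45926523, minus strand) exports iron. It had 350.2 CPM on the fasted plate and 163.1, 832.6 and 512.6 CPM on fed plates 1, 2 and 3, against 4.72 to 14.68 CPM in the remaining cells (log2 fold 5.46, SE 0.64, adjusted p 0.00273). Car4 (ENSMUSG00000000805, chromosome 11, 84957786 to 84966044, plus strand) is a carbonic anhydrase anchored on the capillary surface. It had 579.2 CPM on the fasted plate and 111.8, 1194 and 774.2 CPM on fed plates 1, 2 and 3, a log2 fold of 5.16 (SE 1.12, adjusted p 0.0338).

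The calls depended on which plates entered and, for 3 members, on other settings. Leaving out fed plate 2 left 6 of 10 members called, and leaving out the fasted plate or fed plate 3 left 7; Cldn5, Slco1a4 and Car4 were lost each time (adjusted p 0.069 to 0.18) and Abcb1a was lost without fed plate 2 (0.06). With no filter on low counts Cldn5 (0.056), Slco1a4 (0.051) and Car4 (0.099) also missed the threshold, and Car4 did so with plain library totals (0.052) and in wells of at least 3000 transcripts (0.053). Without fed plate 1 all 10 were called, with a log2 fold of 6.96 for Cldn5. Every member kept a positive fold in all 16 fits of this comparison.

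**Figure D1:**
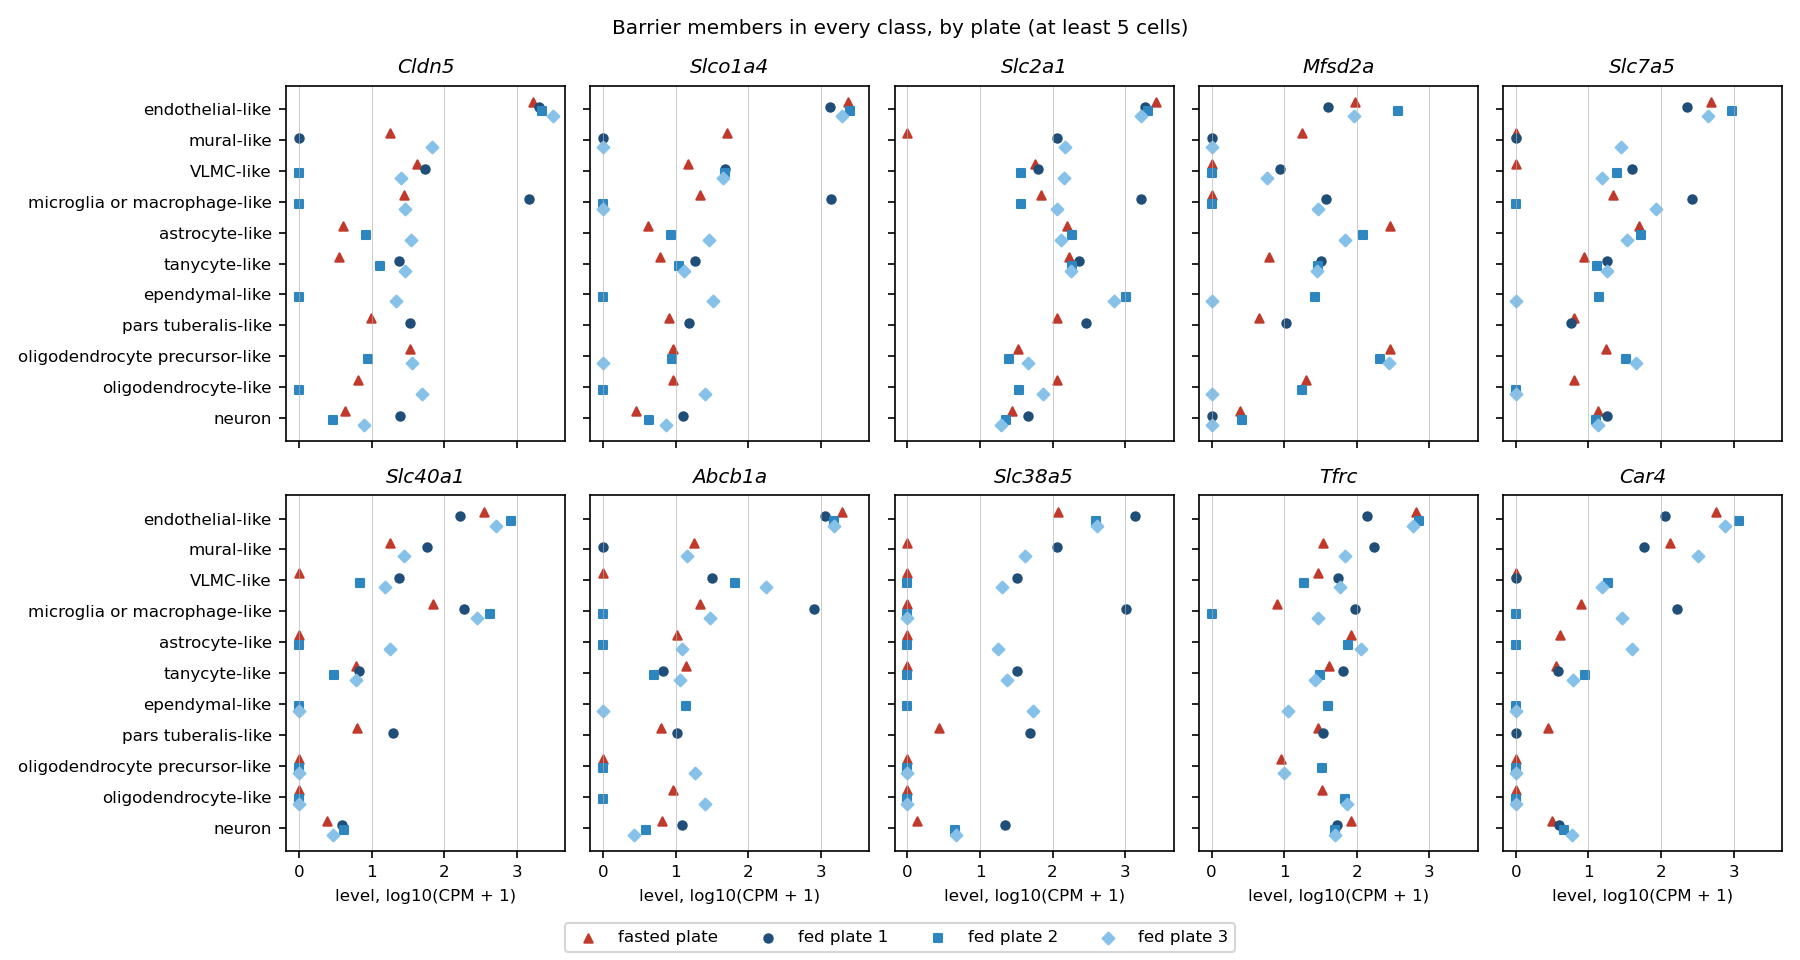
Level of each member as log10(CPM + 1) on the horizontal axis in each class with at least 5 cells on a plate, 1 point per plate (red triangles fasted, blue symbols fed). Endothelial-like cells have the highest class mean for all members except Mfsd2a, where oligodendrocyte precursor-like cells reach 207.0 to 286.4 CPM, and the single high microglia- or macrophage-like point for Cldn5 is fed plate 1.

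The lists of other barrier genes moved with the members to differing degrees. All 19 Wnt and barrier regulators were higher in endothelial-like cells, with a list median log2 fold of 3.62 beside -0.27 over all genes. Among them were Lef1, the nuclear partner of beta-catenin (log2 fold 5.59, SE 0.80, adjusted p 0.0106), Foxq1 (5.11, SE 0.88, adjusted p 0.0178) and Sox17 (5.00, SE 0.97, adjusted p 0.025). Of 15 other solute carriers of brain endothelium, 13 were higher and 2 did not pass the test. The largest folds were those of the thyroid hormone transporter Slco1c1 (5.46, SE 0.71, adjusted p 0.00685), the metal transporter Slc39a8 (5.07), the thiamine transporter Slc19a3 (5.04) and Slc16a4 (4.85). The 2 without a call, named after their values were seen, were the nucleoside transporter Slc29a1 (0.06) and the vitamin transporter Slc5a6 (-0.58).

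Of 11 other junction genes, 9 were higher, led by Esam (4.79), Lsr (4.61), Ocln (4.14) and F11r (3.83), which encode adhesion and tight junction proteins. The remaining 2, named after their values were seen, were lower: Cgn (-3.52, SE 0.89, adjusted p 0.000317) and Cldn12 (-1.64, SE 0.39, adjusted p 0.000108). Of 6 other efflux pumps, Abcc6 (5.05), Abcg2 (4.86) and Abcc4 (4.10) were higher, Abcc5 was lower (-1.25, adjusted p 1.33e-05) and 2 did not pass. Of 11 other iron handling genes tested of 12 listed, the ferroxidases Cp (2.56, adjusted p 0.00321) and Heph (1.54, adjusted p 0.0199) and the ferritin light chain Ftl1 (0.78) were higher. Bmp6, the signal through which liver endothelium senses iron, was lower (-2.25, adjusted p 5.93e-08), and 7 did not pass.

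Most genes of the vessel-type lists were also called higher. These were 8 of 9 arterial genes (Bmx 4.27, Gkn3 3.88, Sema3g 3.70 and Vegfc 3.38 had the largest folds) and 7 of 8 venous genes tested (among them Vwf 5.63, Ephb4 3.86 and Icam1 3.51). Of the caveolae and fenestration list, 4 of 5 tested genes were higher, all caveolar (Cavin2 4.43, Cav1 4.30, Cav2 3.51, Cavin1 3.51). Of 13 acute phase genes tested, 8 were higher, with Il1r1 (5.26), Ch25h (5.10), Ptgs2 (3.98) and Cfb (3.78) the largest, while Lcn2 (2.01, adjusted p 0.27) and Ackr1 (0.98, adjusted p 0.662) did not pass. Plvap, the diaphragm protein of fenestrae, was seen in 1 of 152 endothelial-like cells, with 13 transcripts in a single cell of the fasted plate that held no Cldn5. Its level in neurons was 6.97 to 11.49 CPM over the plates.

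**Figure D2:**
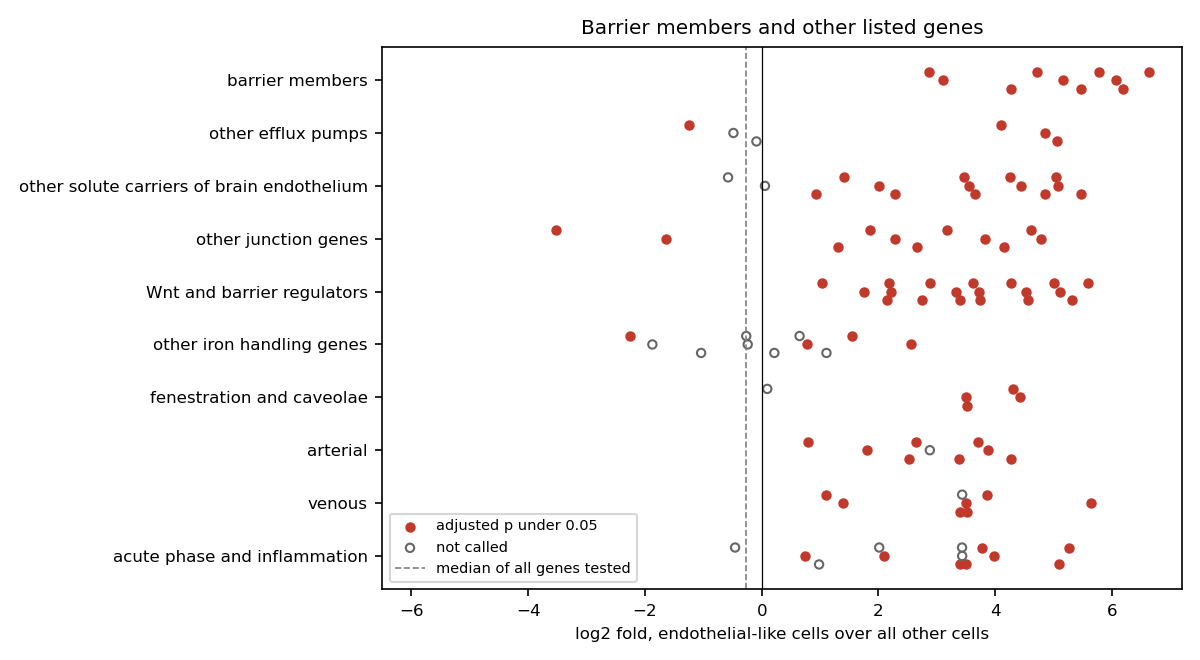
Log2 fold of endothelial-like cells over all other kept cells for each tested gene, by list. Filled red points passed an adjusted p of 0.05 by edgeR, open points did not, and the dashed line is the median of all genes tested at -0.27. All 10 members and all 19 Wnt and barrier regulators lie to the right of 0, while the iron handling genes spread on both sides.

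Across the means of 11 named classes, the genes whose log2(CPM + 1) pattern was most like the mean of the standardized members were Ptprb (Pearson r = 0.992), Flt1 (0.973), Adgrl4 (0.968), Ly6c1 (0.964), Zfp366 (0.957) and Tek (0.956). Ptprb and Flt1 were among the markers that named the class, and classes share libraries and depth, so these are descriptions. The members themselves ranged between 0.39 for Mfsd2a and 0.962 for Slco1a4 by the same measure, with Tfrc at 0.734 and Slc2a1 at 0.747.

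The second comparison concerned endothelial-like cells with and without Lcn2 and Ackr1, an acute phase lipocalin and the chemokine-binding receptor of venules. The planned split by cell, at least 1 transcript of both genes against neither, had no cells on 1 side. On fed plate 1, 87 of 90 endothelial-like cells held at least 1 transcript of both genes and none held neither, but so did 123 of 124 neurons. Both were seen in 0 of 19 endothelial-like cells on the fasted plate, 1 of 20 on fed plate 2 and 1 of 23 on fed plate 3. The levels separated the clusters of fed plate 1. Lcn2 was at 10590 CPM in cluster 8, 2363 CPM in cluster 7 and 301.3 CPM in cluster 18, beside 300.9 CPM in neurons of that plate, and Ackr1 was at 6499, 875.6 and 267.8 CPM in the same clusters, beside 242.1 CPM in neurons. The level of cluster 7 was uneven over its cells: the median cell held 3 transcripts of Lcn2 and 2 of Ackr1, and 5 of 15 cells held at least 3 of both, beside medians of 143 and 101 transcripts in cluster 8. Cluster 8, in which all 57 cells held at least 3 transcripts of both, therefore stood for the cells with Lcn2 and Ackr1, and clusters 7 (15 cells) and 18 (18 cells) of the same plate for the others. All of cluster 8 was on 1 plate, so there was no test, and the intervals are exact Poisson intervals that cover counting error only.

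In cluster 8, glutamine and lysophospholipid transport genes stood at opposite ends. Slc38a5 was at 1825 CPM (1741 counts, in 57 of 57 cells) in cluster 8, 467.8 CPM in cluster 7 and 40.91 CPM in cluster 18. The ratio of cluster 8 to both others pooled was 12.9 (9.71 to 17.4), and it was 3.90 (2.84 to 5.51) to cluster 7 alone and 44.6 (24.9 to 89.5) to cluster 18 alone. Mfsd2a was at 8.39 CPM (8 counts, in 7 of 57 cells) in cluster 8, 131.9 CPM in cluster 7 and 119.0 CPM in cluster 18. Its ratio to the pooled others was 0.0687 (0.0279 to 0.148), a level 14.6-fold lower. The 11 Mfsd2a counts of cluster 7 on this plate came from 6 of 15 cells, at most 3 from 1 cell, and the 32 counts of cluster 18 came from 6 of 18 cells. After thinning to 1000 transcripts, Mfsd2a was seen in 0 of 57 cells of cluster 8, 2 of 15 of cluster 7 and 0 of 18 of cluster 18. Car4 was at 71.28 CPM in cluster 8, 875.6 CPM in cluster 7 and 18.6 CPM in cluster 18, a ratio of 0.322 (0.229 to 0.451) to the pooled others.

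These 3 were the members at least 2-fold apart with intervals that did not overlap in the pooled comparison, 1 higher and 2 lower. The same rule held for 3.96% (higher) and 4.67% (lower) of 10880 genes. The other 7 members had pooled ratios between 0.514 (Slc40a1) and 1.18 (Slco1a4), with Cldn5 at 0.678 (0.626 to 0.735), Slc2a1 at 0.778 and Abcb1a at 0.90.

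Pooling joined unlike clusters, and each alone gave a different picture. Against cluster 7, 5 members were lower and 1 higher in cluster 8, where the rule held for 2.86% (lower) and 2.24% (higher) of 10189 genes. Besides Mfsd2a and Car4 (0.0814, 0.0576 to 0.115), these were the iron exporter Slc40a1 (130.0 against 695.7 CPM, ratio 0.187), the transferrin receptor Tfrc (135.2 against 491.8 CPM, ratio 0.275) and the amino acid exchanger Slc7a5 (236.9 against 599.7 CPM, ratio 0.395). Cluster 18 was as low or lower, at 115.3 CPM of Slc40a1, 40.91 CPM of Tfrc, 96.7 CPM of Slc7a5 and 18.6 CPM of Car4. For these genes cluster 7 was thus the high one of the clusters, rather than cluster 8 the low one. Mfsd2a differed, with 131.9 CPM in cluster 7 and 119.0 CPM in cluster 18. Against cluster 18, 4 members were higher and 1 lower, where the rule held for 4.5% (higher) and 5.06% (lower) of 10688 genes: Slc38a5, Car4 (3.83, 1.56 to 12.2), Tfrc (3.31) and Slc7a5 (2.45) were higher and Mfsd2a was lower (0.0705). Mfsd2a and Slc38a5 had the same direction against both clusters, and Car4 did not. The Mfsd2a ratio did not pass the rule in either other split by cell: it was 0.485 (0.239 to 1.09) between the 72 cells with at least 3 transcripts of both genes and the other 18, and turned to 1.24 (0.312 to 10.7) between 69 cells with both and 6 with neither after thinning to 3000 transcripts. Slc38a5 passed it in both, at 19.1 (10.7 to 38.4) and 78.6 (21.7 to 649.8).

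Other genes of the clusters differed at the same time. Against the pooled clusters, all 9 arterial genes were lower and 7 of 9 venous genes higher in cluster 8. Against cluster 7 alone, 1 arterial gene was lower and 1 higher, and 5 venous genes were higher, while against cluster 18 alone all 9 arterial genes were lower and 7 venous genes higher. Against the pooled clusters, 12 of 16 acute phase genes were higher, 4 of which (Icam1, Lrg1, Selp and Vcam1) are also in the venous list. Lcn2 and Ackr1, whose levels chose cluster 8, are themselves listed genes. The counts of acute phase and venous genes are therefore partly fixed by that choice. Against cluster 7 alone, the endothelial selectin Sele had 362.7 CPM in cluster 8 and 11.99 CPM (1 count) in cluster 7, the chemokine Cxcl1 1822 and 35.98 CPM, and the interleukin 1 receptor Il1r1 1161 and 227.9 CPM. Of the 15 other solute carriers, 6 were lower against cluster 7, among them the organic anion transporter Slc22a8 (201.3 against 1056 CPM) and the monocarboxylate transporter Slc16a1 (154.1 against 695.7 CPM). Of 19 Wnt and barrier regulators, 5 were lower against cluster 7 (among them Axin2, Foxf2, Foxq1 and Sox17, with ratios of 0.249 to 0.382) and none higher. Against cluster 18 both lists went both ways, with 6 Wnt and barrier regulators lower and 2 higher, and 3 solute carriers lower and 2 higher. None of the 11 other junction genes or 6 other efflux pumps passed the rule against cluster 7, and 1 junction gene was higher against the pooled clusters and 1 against cluster 18.

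Depth and other markers moved with the split. The median depth was 16984 transcripts in cluster 8, 3484.4 in cluster 7 and 15052 in cluster 18. The summed level of 12 endothelial markers was 8697 CPM in cluster 8, 14980 CPM in cluster 7 and 15720 CPM in cluster 18. The 7 markers of vascular and leptomeningeal cells (VLMC) summed to 4777 CPM in cluster 8, with none of them at 0, against 131.9 and 81.82 CPM in clusters 7 and 18. The part of these values in the ratios was not tested.

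**Figure D3:**
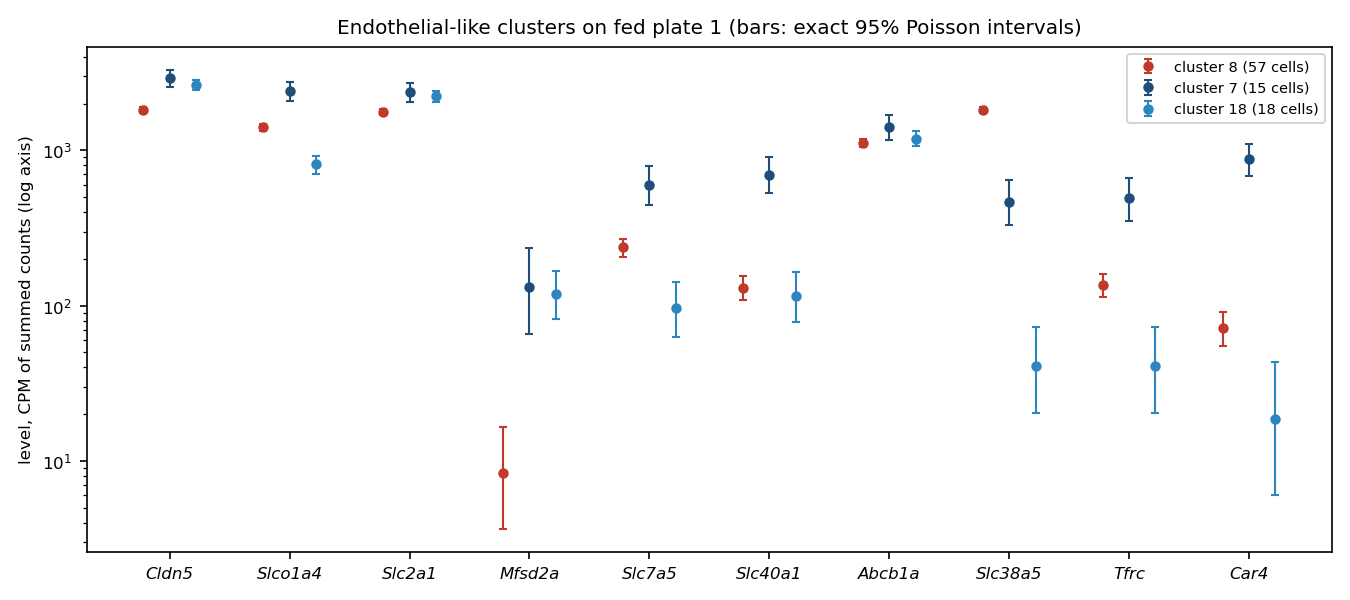
Level of each member in CPM on a log axis in cluster 8, cluster 7 and cluster 18 of fed plate 1, with exact 95% Poisson intervals of the summed counts. Cluster 8 is highest for Slc38a5 (1825 CPM) and lowest for Mfsd2a (8.39 CPM), and cluster 7 is highest for Car4 (875.6 CPM).

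The third comparison asked whether the members differed between the fasted and the fed plates. With 1 fasted plate, the spread came from the fed plates, and the fast and the plate cannot be told apart. The labels do not tie plates to animals, so p-values measure only the spread between plates. In simulated data the fit for all endothelial-like cells recovered 0 of 100 2-fold and 9 of 100 4-fold changes. A missing call therefore does not show an equal level. In all endothelial-like cells none of the 10 members was called by edgeR, among 1 called gene of 6480 (0.0154%); 410 genes had an unadjusted p below 0.05, and DESeq2 called no member. The 3 fed plates differed in the clusters they held, since fed plate 1 contributed 57 cells of cluster 8 and the fasted plate none. Slc38a5 had the largest member fold (-2.65, SE 1.14, edgeR adjusted p 0.817), and was at 116.7 CPM on the fasted plate and 401.3 to 1371 CPM on the fed plates.

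Cluster 7 was the only endothelial-like cluster with at least 10 cells on every plate, and restricting the comparison to it was chosen after seeing the data. In its 17 fasted cells Slc38a5 was at 158.3 CPM (26 counts, in 5 cells), against 467.8, 428.9 and 644.5 CPM on fed plates 1, 2 and 3, where 9 of 15, 11 of 18 and 13 of 19 cells held it. The fasted value lay below all 3 fed values. The log2 fold was -1.66 (SE 0.44, edgeR adjusted p 0.0158), and 12 of 3850 genes were called lower (0.312%). Without the cell with the most counts on each plate the levels were 118.2 CPM fasted and 462.1, 401.8 and 447.9 CPM fed. The call was lost with DESeq2 (adjusted p 0.09), with no filter on low counts (0.11) and without fed plate 3 (0.13).

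No other member was called in cluster 7. In simulated data the fit for cluster 7 recovered 8 of 100 2-fold and 47 of 100 4-fold changes. A missing call here does not show an equal level either. On the fasted plate Slc2a1 (2953 CPM fasted, 2375, 2145 and 1691 CPM fed), Abcb1a (2313 CPM fasted, 1403, 1619 and 1825 CPM fed) and Slco1a4 (3001 CPM fasted, 2399, 2659 and 2812 CPM fed) lay above every fed plate. Cldn5 (1985 CPM fasted, 2903, 2348 and 3122 CPM fed), Slc40a1 (468.8 CPM fasted, 695.7, 890.0 and 786.7 CPM fed), Car4 (785.3 CPM fasted, 875.6 to 1276 CPM fed) and Mfsd2a (115.7 CPM fasted, 125.5 to 396.8 CPM fed) lay below every fed plate. Their adjusted p-values by edgeR were between 0.542 and 0.864, so none of these shifts passed the test. Slc7a5 and Tfrc on the fasted plate fell among the fed values. The member median log2 fold was -0.34, beside -0.05 over all genes tested.

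Among the other lists in cluster 7, 2 genes were called higher on the fasted plate, the venous gene Vwf (log2 fold 1.61, SE 0.36, adjusted p 0.0022) and the interleukin 1 receptor Il1r1 (1.85, SE 0.36, adjusted p 0.000102). None of the 13 tested solute carriers, 8 junction genes or 19 Wnt and barrier regulators was called. The plates also differed in sex-linked transcripts, and Slc38a5 is X-linked. In cluster 7, Xist without Y-linked transcripts was seen in 7 of 17 fasted cells, and in 0 of 15, 10 of 18 and 8 of 19 cells of fed plates 1, 2 and 3. Y-linked transcripts without Xist were seen in 3 of 17 fasted cells, and in 12 of 15, 2 of 18 and 4 of 19 cells of the same fed plates. Both kinds of transcript were seen in 6 of 17 fasted cells, and in 0, 1 and 4 cells of fed plates 1, 2 and 3. The part of sex in the Slc38a5 difference was not tested. Mural markers summed to 359.2 CPM in fasted cells of cluster 7 and 911.5 to 1180 CPM in fed cells, and their part was not tested either.

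**Figure D4:**
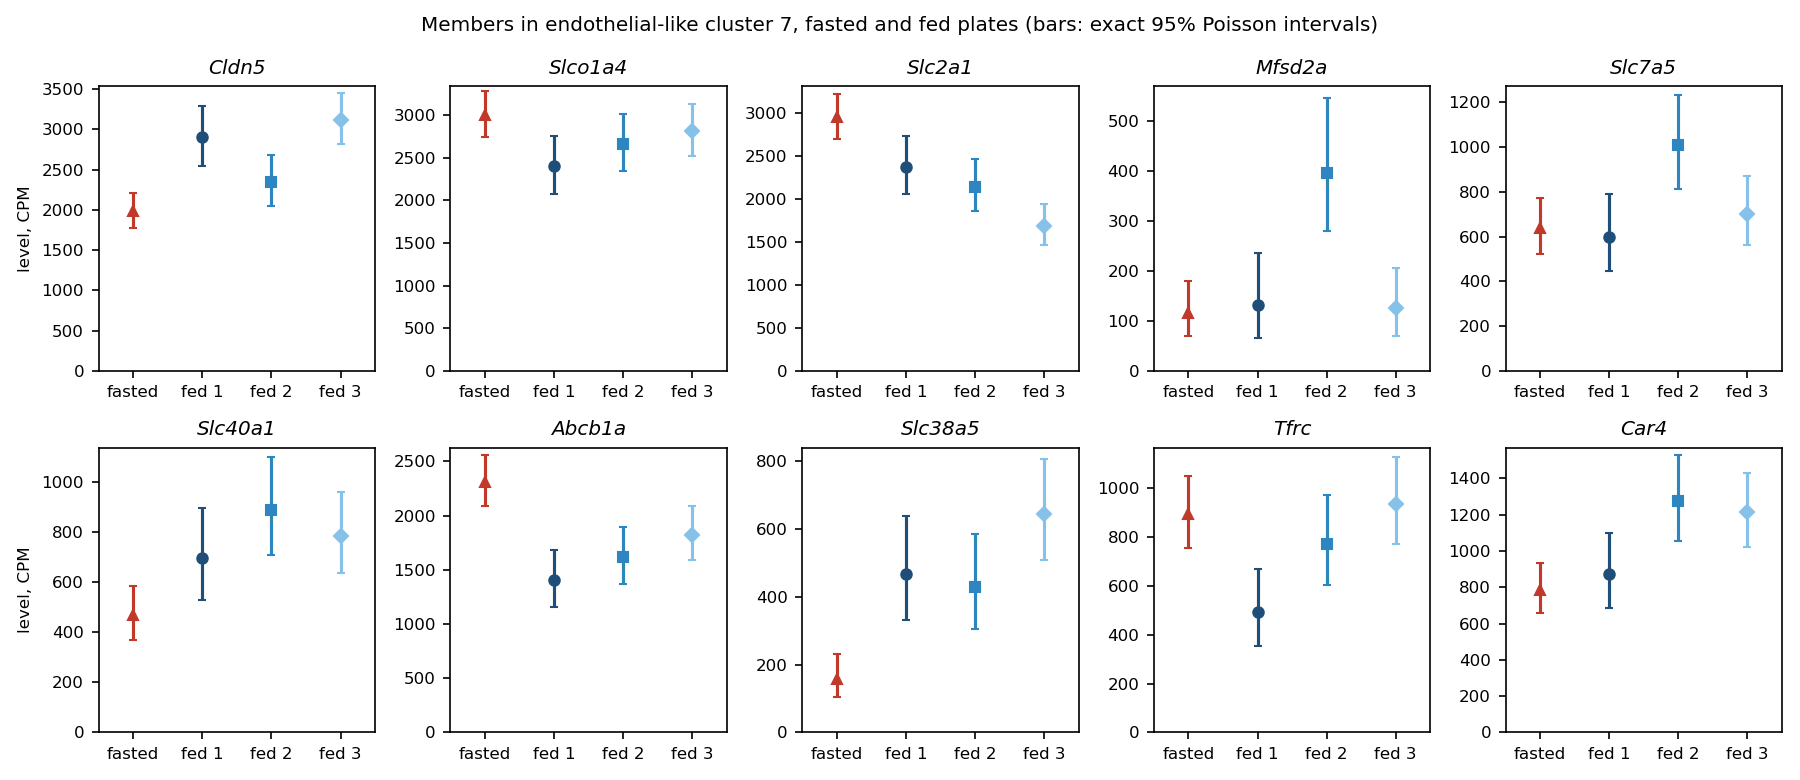
Level of each member in CPM in cluster 7 on the fasted plate (red) and fed plates 1 to 3 (blue), with exact 95% Poisson intervals. Slc38a5 is at 158.3 CPM on the fasted plate and between 428.9 and 644.5 CPM on the fed plates, the only member called by edgeR.

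In neurons none of the members was called between the fasted and fed plates, where 0.258% of 15097 genes were called in either direction. In tanycyte-like cells, the glia lining the third ventricle, none was called either, beside 3.21% of 10269 genes. In astrocyte-like cells Mfsd2a was higher on the fasted plate, at 284.6 CPM, against 119.9 and 67.15 CPM on fed plates 2 and 3, the fed plates with at least 10 such cells. The log2 fold was 1.71 (SE 0.41, edgeR adjusted p 0.0101), and 0.376% of 5323 genes were called higher. DESeq2 did not call it (adjusted p 1.00). In endothelial-like cluster 7 Mfsd2a on the fasted plate was below the fed plates; this difference between the cell types was not tested.

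The last comparisons set each other class against the remaining cells without endothelial-like cells. They asked which members had a level outside the vessel wall. In oligodendrocyte precursor-like cells Mfsd2a had 286.4 CPM on the fasted plate and 207.0 and 274.3 CPM on fed plates 2 and 3, in 24 of 29 cells. The log2 fold was 4.29 (SE 0.33, adjusted p 1.02e-35), and 8.49% of 13771 genes were called higher. Astrocyte-like cells followed with a log2 fold of 3.77 (SE 0.33, adjusted p 6.62e-29). The class mean was 255.9 ± 42.78 CPM (SD, n = 3 plates) in oligodendrocyte precursor-like cells and 157.2 ± 113.4 CPM (SD, n = 3 plates) in astrocyte-like cells, beside 148.8 ± 150.4 CPM (SD, n = 4 plates) in endothelial-like cells. The ranges of the 3 overlapped, so their order was not resolved. Neurons held 9 Mfsd2a counts in 388 cells. Endothelial-like cells had the highest class mean for the other 9 members.

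In astrocyte-like cells 4 members were higher, against 14.9% of 14103 genes. Besides Mfsd2a these were Slc7a5 (1.80, SE 0.45, adjusted p 0.000292; 49.49 CPM fasted, 52.46 and 33.58 CPM on fed plates 2 and 3), Slc2a1 (1.09, SE 0.25, adjusted p 5.82e-05) and Tfrc (0.90, SE 0.30, adjusted p 0.00859). Slc7a5 was lost without the fasted plate (adjusted p 0.069) and Tfrc without fed plate 3 (0.18), with no filter on low counts (0.11) and with DESeq2 (0.05). In oligodendrocyte precursor-like cells Slc2a1 (-1.40, SE 0.44, adjusted p 0.00966) and Tfrc (-1.73, SE 0.58, adjusted p 0.0173) were lower, among 13.8% of genes. Both calls were lost without fed plate 3 (0.079 and 0.17) and with DESeq2 (0.095 and 0.12). That of Slc2a1 was also lost without fed plate 2 (0.081), with the per-cell gate (0.054) and without cluster 15 (0.09), and that of Tfrc without the fasted plate (0.2).

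Slc2a1 in tanycyte-like cells was 166.5 CPM on the fasted plate and 232.9, 184.9 and 179.9 CPM on fed plates 1, 2 and 3, a log2 fold of 0.92 (SE 0.22, adjusted p 0.00555) where 21.5% of 13933 genes were called higher. It was lost without the fasted plate (adjusted p 0.13) and without plate as a block (0.19). Ependymal-like cells, the ciliated cells of the ventricle, had 1017 and 692.0 CPM of Slc2a1 on fed plates 2 and 3, with 8 and 14 cells. That was the second highest class mean for Slc2a1, but too few plates held 5 such cells for a test. Tanycyte-like cells had 5 members lower (Cldn5, Slco1a4, Abcb1a, Tfrc and Car4, log2 folds -0.59 to -1.84), among 24.7% of genes. None of these 5 was called once cluster 15 was left out of the remaining cells.

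In the vessel wall, Car4 was higher in mural-like cells, the pericytes and smooth muscle cells, at 133.5 CPM on the fasted plate and 57.3 and 321.9 CPM on fed plates 1 and 3. The log2 fold was 3.53 (SE 0.65, adjusted p 2.8e-06), beside 4.83% of 13327 genes. It was 362.5 CPM in cluster 16 and 30.78 CPM in cluster 24, the 2 mural-like clusters, and the call was lost without fed plate 3 (adjusted p 0.15). Which members were called in mural-like cells depended on the class definition, since a per-cell gate on markers gave a different number, reported in the closing section. Endothelial markers summed to 458.4 to 670.7 CPM in mural-like cells and Cldn5 to at most 67.07 CPM, beside 10540 to 15930 CPM of endothelial markers in endothelial-like cells.

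Abcb1a was higher in VLMC-like cells, at 0 CPM on the fasted plate and 30.96, 64.87 and 174.7 CPM on fed plates 1, 2 and 3 (log2 fold 1.76, SE 0.48, adjusted p 0.00252), beside 13.7% of 13780 genes. The call was lost without fed plate 3 (adjusted p 0.58), without the fasted plate (0.091), with DESeq2 (0.18) and without plate as a block (0.35). Of its 51 counts in the class, 38 were in the 10 cells of cluster 23, which was led by Nov, Slc47a1, Prg4 and Slc26a2. Its level there was 496.6 CPM (351.4 to 681.7), with Abcb1a in 7 of 10 cells, beside 38.28 and 12.55 CPM in the other VLMC-like clusters 9 and 12. Cldn5 in cluster 23 was 26.14 CPM, from 2 counts.

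Slc40a1, through which macrophages recycle iron, was higher in microglia- and macrophage-like cells. Its level was 68.54 CPM on the fasted plate and 185.7, 431.1 and 282.3 CPM on fed plates 1, 2 and 3, a log2 fold of 4.77 (SE 0.56, adjusted p 5.84e-16), beside 8.3% of 13471 genes. It was called in all 16 fits, including the one without fed plate 1. The level was 92.33 CPM in cluster 19, the microglial cells led by P2ry12, and 239.7 CPM in cluster 20, led by major histocompatibility class II genes, Lyz2 and Mrc1. Of the 37 Slc40a1 counts in cluster 20, 20 came from fed plate 1 and 10 from 1 cell of fed plate 2. Another 4 members (Cldn5, Slco1a4, Slc7a5 and Abcb1a) were also called higher in this class, but none of them with DESeq2 (adjusted p 0.09 to 0.4), with a per-cell gate on markers (0.39 to 0.5) or without fed plate 1 (0.48 to 0.9), whose 10 cells held endothelial transcripts.

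In neurons 9 members were lower, among 30.3% of 14253 genes, by log2 folds of -1.11 (Slc7a5) to -5.85 (Mfsd2a). The remaining cells included clusters 15 and 20, with 1571 and 1049 CPM of Cldn5, and folds without them are not given here. The call of Slc7a5 was lost with a per-cell gate on markers (adjusted p 0.082) and that of Slc38a5 without plate as a block (0.16). The exception was Tfrc, at 81.48 CPM on the fasted plate and 52.0, 49.9 and 48.59 CPM on fed plates 1, 2 and 3 in neurons, with a log2 fold of 0.20 (SE 0.28, adjusted p 0.561). In oligodendrocyte-like cells Car4 was lower, among 23.1% of 13626 genes. It had 0 counts in 469750 transcripts of the plates tested and 14.07 CPM in the remaining cells, at least 2.2-fold lower against a floor of 3 counts over the group (adjusted p 0.0385). That call was lost without the fasted plate (0.58), fed plate 2 (0.19) or fed plate 3 (0.23), with no filter on low counts (0.082) and with the per-cell gate (0.067), and Car4 did not enter the fit without cluster 15.

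**Figure D5:**
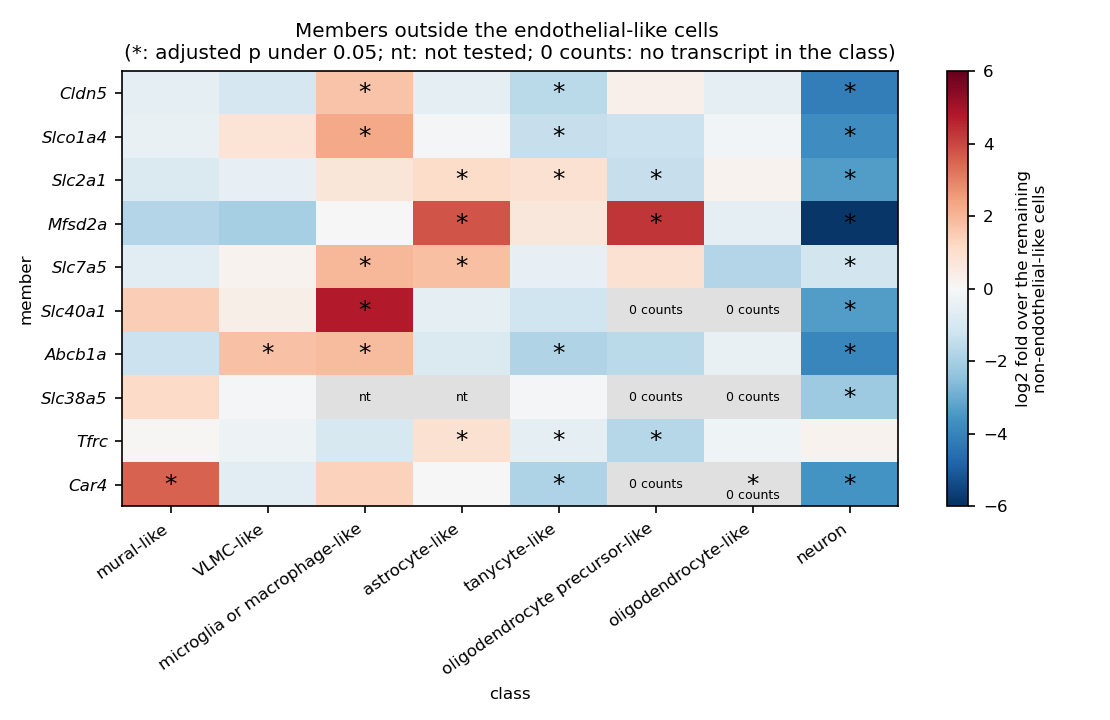
Log2 fold of each member (rows) in each class tested (columns) over the remaining kept cells without endothelial-like cells; red is higher, blue lower, and an asterisk marks an adjusted p below 0.05 by edgeR, and grey fields had 0 counts in the class or were not tested. Mfsd2a is high in oligodendrocyte precursor-like (4.29) and astrocyte-like cells (3.77), Slc40a1 in microglia- or macrophage-like cells (4.77) and Car4 in mural-like cells (3.53).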

How the data were processed

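Single hypothalamic cells were measured by CEL-seq2 on 4 plates. The deposited tables hold expected counts per gene and well: UMI counts corrected for collisions, from which whole UMIs were recovered within 1e-06 in every well. Reads were handled with Trim Galore and STAR against mm10, per the submitters' processing notes; for the UMI counter and the annotation release, nothing is given in the sources used here. Wells with at least 1000 transcripts and at most 30% mitochondrial transcripts were kept (4402407 to 5535041 transcripts a plate). Cells were clustered with scanpy 1.11.5 (2000 variable genes without the members and listed genes, 30 components, 10 neighbours, Leiden resolution 1.5) and named from marker lists. Scrublet called 2, 1 and 0 doublets on fed plates 1 to 3 and 2 on the fasted plate and these wells were kept, with an alternative without them.

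Counts were rounded to whole numbers in each well, summed per plate and class (at least 5 cells, or 10 for fasting) and tested with edgeR 4.0.16 (TMM, filterByExpr, quasi-likelihood test, Benjamini-Hochberg adjustment across every gene tested), taking plate as a block for a class against the rest, since both sums come from the same plate. DESeq2 1.42.0 was an alternative. Scripts were tested on simulated data. In each list at most 4 called genes with the largest folds are named; exceptions are stated, and some genes this rule names are not reported here. The members and lists were chosen with earlier results of these data known. Intervals cover counting error only. The planned split by cell on Lcn2 and Ackr1 left no endothelial-like cell with neither gene on fed plate 1. A split by cluster was used instead, with the cluster chosen from its levels of both genes in these data.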

Additional observations from a re-analysis of the deposited data

Results flagged for a closer look

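Slc2a1 on the fasted plate was above every fed plate in endothelial-like cells (2636 CPM fasted, 1898, 2036 and 1660 CPM on fed plates 1, 2 and 3) and below every fed plate in tanycyte-like cells (166.5 CPM fasted, 232.9, 184.9 and 179.9 CPM fed). Neither difference was called, and the difference between the cell types was not tested.

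As CPM, the wells of the fed plates left out for low depth or high mitochondrial content held member transcripts above the level of neurons. The 10 members summed to 2266 CPM (exact Poisson 95% interval 1480 to 3320, 26 counts) in the 28 such wells of fed plate 1, beside 187.8 CPM in neurons of that plate. The sums were 525.3 CPM (320.8 to 811.2) in 62 wells of fed plate 2, beside 103.7 CPM in neurons, and 612.0 CPM (388.0 to 918.4) in 53 wells of fed plate 3, beside 105.1 CPM in neurons. On the fasted plate 114 such wells held 263.6 CPM (131.6 to 471.7), an interval that reached the 136.5 CPM of neurons.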

How the results depend on the processing

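For endothelial-like cells against the rest, the number of members called ranged from 6 to 10 when 1 plate was left out. For the other classes that range was 0 to 1 for mural-like, 3 to 5 for tanycyte-like, 0 to 0 for oligodendrocyte-like, 1 to 2 for oligodendrocyte precursor-like and 1 to 6 for microglia- and macrophage-like cells. For fasting it was 0 to 1 in endothelial-like cells, neurons and cluster 7. DESeq2 called 0 members in VLMC-like and oligodendrocyte-like cells (Car4 had no adjusted p there), 1 in oligodendrocyte precursor-like and 1 in microglia- and macrophage-like cells, and 0 for fasting in astrocyte-like cells and cluster 7. With no filter on low counts, 0 were called in oligodendrocyte-like cells and cluster 7, and 1 for fasting in endothelial-like cells and in neurons. A per-cell gate on markers gave 9 in mural-like, 2 in VLMC-like, 2 in tanycyte-like, 0 in oligodendrocyte-like and 2 in microglia- and macrophage-like cells. In mural-like cells the clusters had given 1 member. The direction of the 9 is not given here, and the number of all genes called with the gate rose too, as listed below. Plain library totals gave 2 in VLMC-like cells and 1 for fasting in endothelial-like cells, as did its clusters with at least 10 cells on every plate (1). Leaving out cluster 15 gave 2 in VLMC-like, 1 in tanycyte-like and 0 in oligodendrocyte-like cells. The Cldn5 log2 fold in tanycyte-like cells turned to 0.12 with the gate and 0.03 without cluster 15. In the split, 6 members passed the rule against cluster 7 and 5 against cluster 18; the Car4 ratio turned to 3.83 against cluster 18 and that of Mfsd2a to 1.24 when cells thinned to 3000 transcripts were split one by one, which left 6 cells with neither gene; there Car4 had 0 counts in those cells and gave no ratio. The cause of these changes was not tested.

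Without plate as a replicate block, 0 members were called in VLMC-like, 1 in tanycyte-like, 2 in oligodendrocyte-like and 2 in microglia- and macrophage-like cells, and all 10 in endothelial-like cells. No paired analysis was possible because plate numbers do not pair fed with fasted plates for the fasting comparison. Depth limits the split: Mfsd2a had 8 counts in cluster 8 and Car4 5 in cluster 18.

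Counts of all genes called moved by over 1.5 times in these cases. In mural-like cells 1548 became 3109 with the gate, 525 without fed plate 3 and 647 without the fasted plate. In oligodendrocyte-like cells 4345 became 2539 with DESeq2 and 1615 to 2834 without a plate, in oligodendrocyte precursor-like cells 3071 became 1833 with DESeq2 and 1912 to 2005 without fed plate 3 or 2, in astrocyte-like cells 5219 became 3450 with DESeq2, and in microglia- and macrophage-like cells 3399 became 1955 without the fasted plate. For fasting, 1 in endothelial-like cells became 28 with plain totals, 12 with no filter, 58 without fed plate 1, 47 without cells holding both Lcn2 and Ackr1, 68 in cluster 7, and 0 with DESeq2, the gate, without Scrublet doublets or without fed plate 2. In neurons 39 became 24 with plain totals, 403 with no filter, 60 with DESeq2 and 101 to 1146 without a fed plate. In tanycyte-like cells 330 became 201 with no filter, 33 with DESeq2, and 151 and 174 without fed plates 1 and 3. In astrocyte-like cells 32 became 16 with no filter, 1 with DESeq2 and 12 in wells of at least 3000 transcripts, and in cluster 7, 68 became 12 with DESeq2 and 41 without fed plate 2.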
